A study of Mus musculus with 18 samples.

Results

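Nucleic acid sensing, the interferon response and MHC class I antigen presentation were followed through 39 genes, chosen by name from these pathways with earlier results of these data known, out of the 25239 genes of the expression table. All 39 were found. In these pathways, sensors of double-stranded RNA (Tlr3, Ifih1, Dhx58) and of cytosolic DNA (Cgas) signal through adaptors and kinases to interferon regulatory factors, which induce interferons. Interferons then act through their receptors to raise a large set of antiviral genes, and with them the machinery that cuts, transports and loads peptides onto MHC class I molecules for display to CD8+ T cells. Small cell lung cancer (SCLC) is known for low display of MHC class I, and human TAP1, ERAP1, TLR3, IRF5, IRF9 and ISG15 have been described as p53 targets.

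RNA was sequenced from 18 samples of 3 mouse SCLC cell lines of Type D (4711-1, 4711-18 and 4716-11), the type that dies by cyclophilin-dependent necrosis after p53 is restored. Every sample carried deletions of Rb1 and Rbl2, a Trp53 XTR gene-trap allele that Cre had switched off, and Rosa26 FlpO-ER, through which 4-hydroxytamoxifen (4-OHT) removes the trap. Each line carried a control sgRNA against β-Gal (sgBgal) or 1 of 2 sgRNAs against Ppia, the gene of cyclophilin A (sgPpia#3.2 and sgPpia#4.1), and received vehicle (Control, p53 off) or 4-OHT (Restored, p53 on), with RNA taken at 72 h. This gave 6 conditions of 3 samples, 1 per line, and each line was grown from a tumor of a mouse of this model. Cells without the XTR allele were not analysed here under 4-OHT, so 4-OHT and restored p53 cannot be told apart. These were bulk cultures, in which fewer cells of a kind and less RNA per cell cannot be told apart.

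The values are TPM, transcript abundances scaled by gene length and by the sample's total, which can be compared between genes but hold no read totals. Sample depth relative to the shallowest sample, read from the steps between low values, ranged from 1 to 1.77. Trp53 was at 5.45 to 8.41 TPM in the Control samples and 181 to 236 TPM in the Restored samples. Ppia in Control cells was at 2575 to 2849 TPM with sgBgal, 658 to 1207 TPM with sgPpia#3.2 and 1684 to 1952 TPM with sgPpia#4.1, so its RNA was lower and not absent. In Restored cells Ppia was at 1551 to 2730 TPM, 769 to 1233 TPM and 1191 to 1765 TPM in the same order. There the range with sgPpia#4.1 overlapped that with sgBgal, although Ppia was lower with sgPpia#4.1 in each line. Cdkn1a, a p53 target, was at 369 TPM in the Control sample of 4711-18 with sgPpia#3.2, whereas the other 8 Control samples spanned 99.4 to 171 TPM. Results that rest on that sample are also given without it. Among neuroendocrine markers, Chga and Chgb did not exceed 0.156 and 0.215 TPM in any sample, while Syp was at 3.03 to 7.12 TPM and Ncam1 at 6.90 to 29.7 TPM. The sum of 8 leukocyte markers was 3.65 to 7.79 TPM in Control and 23.8 to 43.5 TPM in Restored samples. This rise lay in Cd68, a lysosomal protein, and the other 7 summed to 0.652 to 2.61 TPM and 0.647 to 3.73 TPM. Ptprc and Adgre1, which define leukocytes and macrophages, did not exceed 0.0814 and 0.0631 TPM. No fibroblast marker of 6 reached 1 TPM, and the 4 endothelial markers summed to at most 1.51 TPM.

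All 39 genes matched RefSeq, and 33 of them have promoter windows in the RefSeq table of the GRCm38.p6 build (250 bases before to 50 after a start). The windows were searched on both strands for the interferon-stimulated response element (ISRE, GAAANNGAAA), the gamma-activated site (GAS, TTCNNNGAA) and the p53 half-site consensus. Matches may overlap, as an ISRE and a GAS do in Bst2. An ISRE lay in 10 of the 39 windows of these genes (25.6%) and in 3.44% of all 32851 windows. A GAS lay in 10 windows (25.6%, against 8.30% of all), and a p53 half-site in 2 windows, those of Erap1 and Ifit2 (5.13%, against 8.36%). Tap1 (plus strand, first base 34187556 of chromosome 17) and Psmb9 (minus strand, first base 34187330) start back to back. The 225 bases between both starts are shown because Tap1 had the largest change after restoration and Psmb9 was higher in all 9 pairs of line and sgRNA. None of the 3 motifs was found in this interval or in either gene's window. The interval, read on the strand of Tap1, lies at chr17:34187331-34187555.

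Tap1-Psmb9 interval: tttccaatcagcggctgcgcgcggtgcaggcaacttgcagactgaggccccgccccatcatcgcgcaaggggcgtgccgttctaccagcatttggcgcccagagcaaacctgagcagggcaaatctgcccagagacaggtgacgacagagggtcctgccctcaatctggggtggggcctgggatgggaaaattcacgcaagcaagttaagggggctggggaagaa

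Erap1 and Ifit2, both higher after restoration, are shown around the p53 half-site, in capitals. The stretches lie at chr13:74639759-74639798 and chr19:34550936-34550975, both on the plus strand. The matches begin 79 bases before the start of Erap1 and 137 bases before that of Ifit2.

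Erap1: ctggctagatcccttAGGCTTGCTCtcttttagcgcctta

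Ifit2: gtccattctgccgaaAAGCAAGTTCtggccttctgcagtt

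Isg15 and Ifit3, which interferon induces in many cells, are shown around their ISRE matches, in capitals. They lie at chr4:156200860-156200911 on the minus strand and chr19:34583358-34583431 on the plus strand. The matches of Ifit3 are on the opposite strand and so read as the reverse complement.

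Isg15: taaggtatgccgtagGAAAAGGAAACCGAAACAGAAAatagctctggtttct

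Ifit3: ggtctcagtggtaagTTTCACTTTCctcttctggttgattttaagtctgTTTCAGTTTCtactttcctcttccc

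The levels of the 39 genes spanned from 0 to 609 TPM. The median over the 18 samples was at least 100 TPM in 3 genes, at least 10 TPM in 19 and at least 1 TPM in 29. The 3 highest were B2m, the light chain of MHC class I, at 217 to 609 TPM, Ifngr1, a receptor chain for interferon-γ, at 104 to 282 TPM, and H2-D1, a class I heavy chain, at 54.1 to 211 TPM. Among the sensors and adaptors, the kinase Tbk1 was at 28.6 to 52.9 TPM and the mitochondrial adaptor Mavs at 18.3 to 37.1 TPM, while Cgas lay between 0.00899 and 1.36 TPM. The antiviral genes did not share a level. Ifi35 reached 84.9 TPM and Ifit2 34.9 TPM, whereas Ifit1, a cap-binding antiviral protein, did not exceed 0.393 TPM. Oas1a and Oas2, which make the activator of RNase L, did not exceed 0.167 and 0.0483 TPM and were listed at 0 in 12 and 14 samples. Ifnb1, which encodes interferon-β and is not among the 39, was listed at 0 in all 18 samples.

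**Figure D1:**
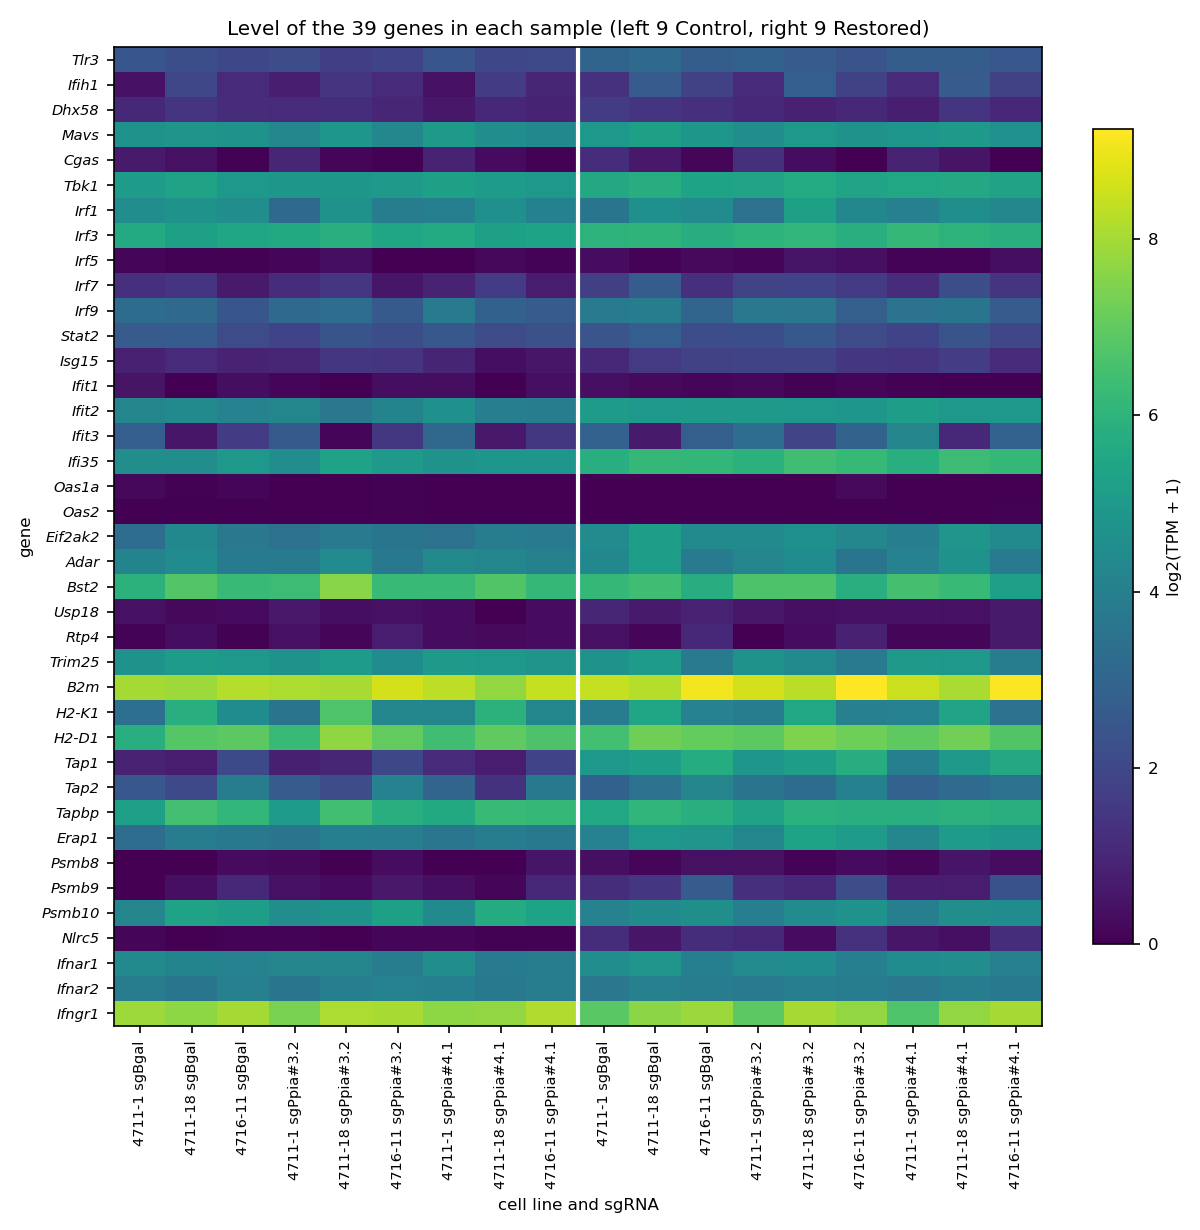
Level of each of the 39 genes (rows) in each of the 18 samples (columns), as log2(TPM + 1) in color; the 9 columns left of the white line are Control samples and the 9 to its right are Restored. B2m is the brightest row at 217 to 609 TPM, Oas1a and Oas2 stay dark throughout, and Tap1 goes from 0.630 to 3.24 TPM on the left to 14.8 to 53.03 TPM on the right.

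A gene was tested when it had at least 1 TPM in at least 3 samples, which held for 31 of the 39 and for 12828 genes in all. Cgas, Irf5, Ifit1, Oas1a, Oas2, Usp18, Rtp4 and Psmb8 were not tested. Psmb9 and Nlrc5 passed only through Restored samples, with 2 and 0 Control samples at 1 TPM, so their place among the tested genes itself depends on a rise. Fold changes below are on the log2(TPM + 1) scale, on which the change of a gene near 0 TPM appears smaller than it is. A gene was called when its adjusted p was under 0.05 and it moved by 1 or more on that scale in either direction.

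The first question was how these genes moved when p53 was restored for 72 h. Tap1, which forms with Tap2 the pump that carries peptides into the endoplasmic reticulum, rose from at most 3.24 TPM in Control samples to at least 14.8 TPM in Restored samples. Ifi35, an interferon-induced protein, rose about 2.48-fold (median of 9 line and sgRNA pairs). Erap1, the aminopeptidase that trims peptides to fit MHC class I, also went up, by a median of 2.23-fold. None of the 31 genes was called lower, and MHC class I heavy chains were not called in either direction.

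Tap1 in sgBgal cells was at 0.837, 0.630 and 3.24 TPM in Control samples of 4711-1, 4711-18 and 4716-11 and at 29.7, 35.2 and 52.4 TPM after restoration. With sgPpia#3.2 it went from 0.764, 0.990 and 2.98 TPM to 27.8, 35.4 and 53.03 TPM in the same order of lines. With sgPpia#4.1 it went from 1.16, 0.642 and 2.67 TPM to 14.8, 31.1 and 46.5 TPM. The lowest Restored sample was above the highest Control sample by several fold, and the 9 pairwise folds ran from 12.7 to 55.9 with a median of 35.5. By limma the log2 fold changes were 4.06 ± 0.47 (SE, n = 3 lines), 4.00 ± 0.47 and 3.62 ± 0.47 with sgBgal, sgPpia#3.2 and sgPpia#4.1, at adjusted p = 7.29e-05, 9.56e-05 and 0.000221. This was the largest change among the 31 genes with each sgRNA.

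Ifi35 was at 22.6, 22.9 and 29.2 TPM in sgBgal Control samples, in the order above, and at 56.1, 71.3 and 69.5 TPM in sgBgal Restored samples. With sgPpia#3.2 it was at 22.4, 40.2 and 30.3 TPM and then at 60.6, 84.9 and 72.6 TPM, and with sgPpia#4.1 at 25.7, 27.8 and 28.1 TPM and then at 54.7, 79.3 and 70.7 TPM. Control and Restored samples did not overlap. Its log2 fold changes were 1.37 ± 0.21, 1.23 ± 0.21 and 1.28 ± 0.21 (SE, n = 3 lines), at adjusted p = 0.000808, 0.00195 and 0.00147 by limma. Without the 4716-11 samples it missed the threshold with sgPpia#3.2 and sgPpia#4.1, at log2 fold changes of 1.23 and 1.27.

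Erap1 in sgBgal cells was at 8.85, 14.3 and 12.4 TPM before and 15.997, 29.4 and 27.6 TPM after restoration. With sgPpia#3.2 it was at 10.9, 14.8 and 14.4 TPM and then at 18.2, 39.8 and 32.6 TPM. With sgPpia#4.1 it was at 11.4, 13.8 and 12.4 TPM and then at 18.7, 33.2 and 27.9 TPM. Its Control and Restored samples did not overlap. The log2 fold changes were 0.96, 1.06 and 0.99 (SE 0.30, n = 3 lines), at adjusted p = 0.0471, 0.0373 and 0.04996 by limma, so that only the change with sgPpia#3.2 also passed the fold minimum. Without the Control sample of 4711-18 with high Cdkn1a it was 1.14 at adjusted p = 0.0555.

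The members called higher thus numbered 2 of 31 with sgBgal (6.45%), 3 with sgPpia#3.2 (9.68%) and 2 with sgPpia#4.1 (6.45%), against 5.46%, 4.44% and 4.3% of all genes tested. Those called lower numbered 0 with each sgRNA, against 2.17%, 1.31% and 1.79% of all genes. At the adjusted p alone, 6, 6 and 5 were higher (19.4%, 19.4% and 16.1%, against 9.86%, 7.62% and 7.16%) and 0 were lower (against 3.96%, 2.39% and 3.14%). Smaller fits gave fewer, among members and over all genes alike. The counts were 3, 1 and 1 without 4716-11 (against 2.67%, 1.55% and 1.64% of all genes) and 4, 3 and 2 without 4711-18 (against 5.55%, 5.53% and 3.17%). In fits of the compared groups only they were 3, 1 and 2 (against 4.90%, 2.56% and 2.21%). With sgPpia#3.2 the count was 3 without the Control sample of high Cdkn1a (against 7.33%). Without Psmb9 and Nlrc5 the counts were 5, 6 and 5 of 29. Samples of a line resembled each other, so a fit that blocks on the cell line was made too. It called 3, 5 and 2 higher (against 7.7%, 6.4% and 6.26% of all genes), adding Psmb9 with sgBgal, and Psmb9 and Ifit3 with sgPpia#3.2. Leaving out Psmb9 and Nlrc5, which entered the test through Restored samples, the block called 2, 4 and 2 of 29. At the adjusted p alone the block gave 14 higher with each sgRNA (45.2%, against 30.2%, 25.3% and 24.3%) and 1, 0 and 1 lower (against 12%, 8.86% and 10.8%), or 12 higher of 29 without Psmb9 and Nlrc5.

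**Figure D2:**
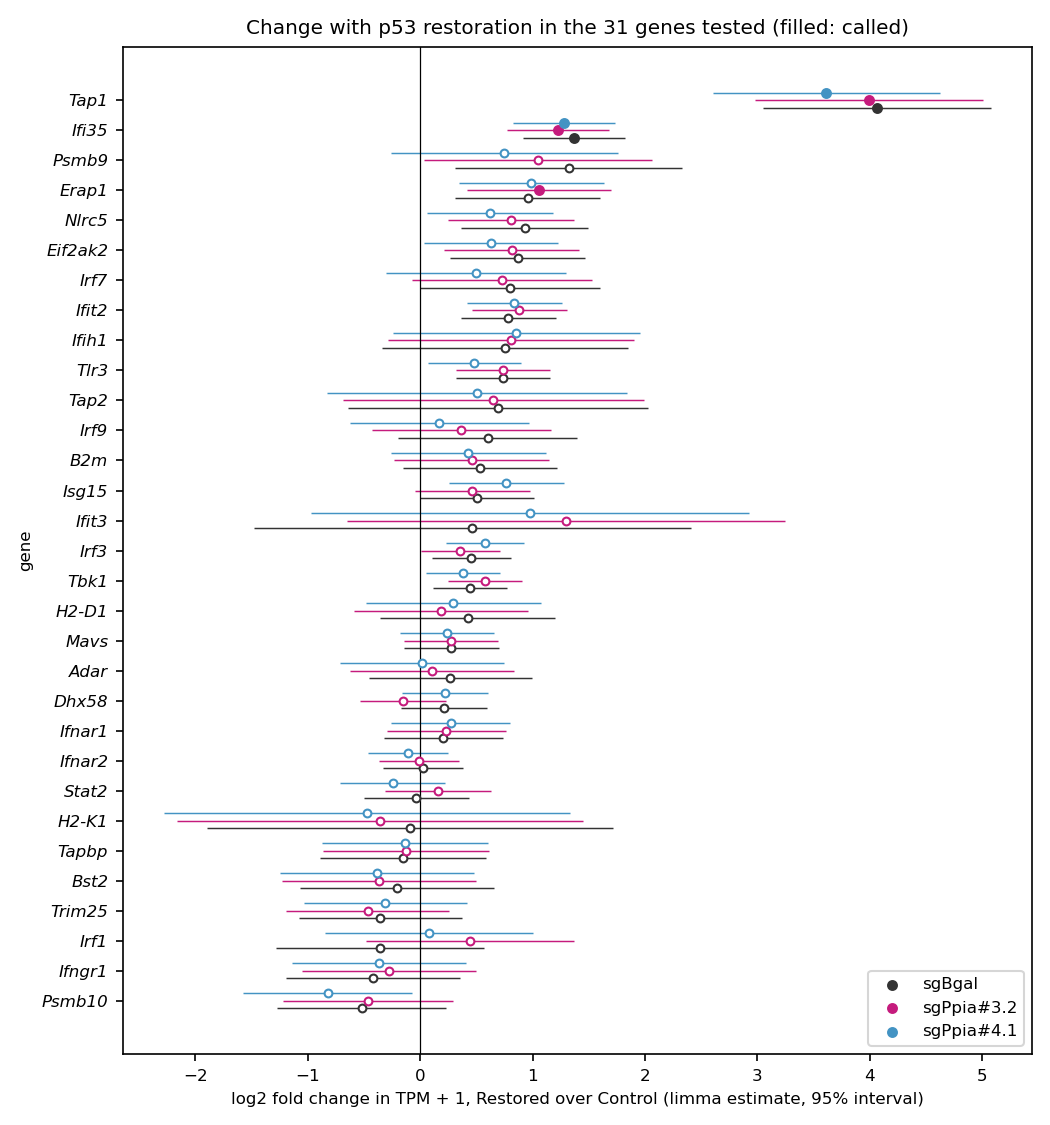
Log2 fold change in TPM + 1 of Restored over Control cells (horizontal axis) for the 31 genes tested (vertical axis, ordered by the change with sgBgal), with points for sgBgal, sgPpia#3.2 and sgPpia#4.1 and bars for the 95% interval of limma; filled points were called. Tap1 stands apart at 3.62 to 4.06, Ifi35 follows at 1.23 to 1.37, and Psmb10 is the lowest with sgBgal at -0.52.

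All genes tested shifted upward on this scale, with a median log2 fold change of 0.19, 0.17 and 0.15 in the order sgBgal, sgPpia#3.2 and sgPpia#4.1. The medians of the 31 genes were 0.46, 0.44 and 0.38. After median-of-ratios rescaling, which removes that shift (medians of all genes -0.00548, -0.00889 and -0.00481), the medians of the 32 members tested on that scale were 0.23, 0.22 and 0.16. With rescaling, calls over all genes with sgBgal went from 701 higher and 279 lower to 479 higher and 391 lower, with sgPpia#3.2 from 570 and 168 to 413 and 243, and with sgPpia#4.1 from 552 and 229 to 414 and 296. Tap1 and Ifi35 were called with every sgRNA on that scale too, at 3.48 to 3.86 and 1.03 to 1.15. Erap1 was at 0.75 to 0.87 and was not called. At the adjusted p alone, 3, 4 and 2 of the 32 members were higher on that scale (against 6.46%, 5.65% and 5.38% of all genes). Of the 32, 0 were lower (against 6.64%, 4.49% and 4.88%).

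Among sensors and adaptors, 3 of the 5 tested were higher in all 9 pairs of line and sgRNA. Tlr3, the endosomal sensor of double-stranded RNA, went from a Control range of 2.26 to 4.55 TPM to 4.26 to 8.05 TPM in Restored samples. Its log2 fold changes were 0.74, 0.74 and 0.48, with adjusted p = 0.0213 and 0.0257 with sgBgal and sgPpia#3.2. With the block Tlr3 passed at limma's adjusted p alone with each sgRNA (0.000760, 0.000913 and 0.0115). Ifih1 (MDA5, a sensor of long cytosolic double-stranded RNA) had pairwise folds of 1.71 to 3.90 and log2 fold changes of 0.75, 0.81 and 0.86, which passed at the adjusted p only with the block (0.00196, 0.00150 and 0.000994). Tbk1, the kinase that activates Irf3, had pairwise folds of 1.22 to 1.75, and its lowest Restored value, 39.1 TPM, was just above its highest Control value, 38.98 TPM. It passed at the adjusted p alone with sgPpia#3.2 (0.58, adjusted p = 0.0282), and with each sgRNA under the block (0.00707, 0.00185 and 0.0195). Without the Control sample of 4711-18 with high Cdkn1a, Tlr3 and Tbk1 missed the adjusted p with sgPpia#3.2, at 0.63 and 0.56 (adjusted p = 0.0809 and 0.0643).

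Among the transcription factors, Irf3, the constitutive factor of interferon induction, and Irf7, its inducible relative, were higher in all 9 pairs. Irf3 was at 37.2 to 55.0 TPM in Control and 54.0 to 70.7 TPM in Restored samples, ranges that overlapped in their ends, and passed at the adjusted p alone with sgPpia#4.1 (0.58, adjusted p = 0.0370), and with each sgRNA under the block (0.0122, 0.0452 and 0.00411). Irf7 had folds of 1.36 to 4.20 from a low level of 0.469 to 2.05 TPM, with adjusted p = 0.177 to 0.468. With the block, Irf7 passed at the adjusted p alone with sgBgal and sgPpia#3.2 (0.00668 and 0.0136) and not with sgPpia#4.1 (0.0704). Irf1, a factor that interferon-γ induces, was higher in 5 pairs and lower in 4. Stat2, part of the complex that drives the type I interferon response, was likewise higher in 5 and lower in 4, and its partner Irf9 was higher in 8. With the block, Irf9 passed at limma's adjusted p alone with sgBgal (0.0119) and not with sgPpia#3.2 or sgPpia#4.1 (0.104 and 0.452).

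Among the 8 antiviral effectors tested, 5 were higher in all 9 pairs. Ifit2, an RNA-binding antiviral protein, went from a Control range of 11.9 to 23.8 TPM to 27.8 to 34.9 TPM, with no overlap. Its log2 fold changes of 0.78, 0.88 and 0.84 passed at the adjusted p alone (0.0169, 0.0108 and 0.0141), and still did so with sgPpia#3.2 without the sample of high Cdkn1a (0.71, adjusted p = 0.0418). Eif2ak2 (PKR, which stops translation when it binds double-stranded RNA) was higher in every pair by 1.41 to 2.32-fold. Its log2 fold changes of 0.87, 0.82 and 0.63 passed at limma's adjusted p alone with the block (0.000594, 0.00109 and 0.00536). With sgBgal it also passed without 4711-18 (0.90, adjusted p = 0.0365). Isg15, a ubiquitin-like modifier, was low, at 0.254 to 1.73 TPM in Control and 1.02 to 2.72 TPM in Restored samples, yet higher in all 9 pairs by 1.06 to 8.65-fold (median 1.70). With the block it passed at the adjusted p alone with sgPpia#4.1 (0.77, adjusted p = 0.0196). Bst2 (tetherin) was lower in 6 pairs and higher in 3, and Adar, the RNA editing enzyme, was higher in 5 and lower in 4. Trim25, a ubiquitin ligase of RNA sensing, was lower in 8.

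Antigen presentation genes moved unequally. Psmb9, an immunoproteasome subunit, was at 0, 0.300 and 1.06 TPM in sgBgal Control samples of the 3 lines and at 1.34, 1.74 and 5.52 TPM after restoration. With sgPpia#3.2 the values were 0.324, 0.217 and 0.561 TPM and then 1.36, 1.08 and 3.54 TPM, and with sgPpia#4.1 0.297, 0.120 and 1.06 TPM and then 0.733, 0.651 and 3.99 TPM. All 9 pairs were higher after restoration, by 2.47 to 6.30-fold in the 8 with a Control value above 0. The log2 fold changes were 1.32, 1.05 and 0.75. They missed the adjusted p (0.0787, 0.192 and 0.367), and the calls with the block are no support for a rise, because Psmb9 entered the test through Restored samples.

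Nlrc5, the transactivator of MHC class I genes, did not exceed 0.116 TPM in any Control sample. In Restored samples of 4711-1, 4711-18 and 4716-11 it was at 1.34, 0.46 and 1.34 TPM with sgBgal, 1.04, 0.227 and 1.49 TPM with sgPpia#3.2 and 0.475, 0.288 and 1.32 TPM with sgPpia#4.1. The states did not overlap, although the level stayed low. The log2 fold change with sgBgal was 0.93. Nlrc5 was tested only because of its Restored samples, so its values are given as a description, with no test. The immunoproteasome subunit Psmb10 moved the other way, from 17.5 to 50.4 TPM in Control to 14.4 to 25.1 TPM in Restored samples, and was lower in all 9 pairs. Its log2 fold changes were -0.52, -0.46 and -0.82, past the adjusted p with the block with sgBgal (0.0286) and sgPpia#4.1 (0.0030), and with sgPpia#4.1 also without 4711-1 (-0.99, adjusted p = 0.0398). Psmb8, the third inducible subunit, did not exceed 0.431 TPM.

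B2m was higher in all 9 pairs, by 1.14 to 1.83-fold. With the block it passed at limma's adjusted p alone with each sgRNA (0.0104, 0.0261 and 0.0356). H2-K1, a class I heavy chain, was lower in 7 pairs and higher in 2, and H2-D1 was higher in 8. The pair in which H2-D1 was lower is that of the Control sample with high Cdkn1a. H2-K1 and H2-D1 are close relatives whose reads may have been split between them and other class I genes, so their separate levels are uncertain. Tap2 was higher in 6 pairs and lower in 3, and Tapbp (tapasin), which holds class I molecules to the pump, was lower in 6. The receptors Ifnar1, Ifnar2 and Ifngr1 were not called. Ifngr1 was lower in 8 pairs.

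Over all 31 genes, 15 were higher in all 9 pairs (48.4%, against 30.8% of all genes tested) and 1 was lower in all 9 (3.23%, against 12.8%). The 9 Control and 9 Restored samples did not overlap in 6 genes, all higher in Restored (19.4%, against 8.12% of all genes): Tap1, Ifi35, Erap1, Tbk1, Ifit2 and Nlrc5. Of the 31, 0 separated in the other direction (against 3.06%). Psmb9 counts among the 15, and Nlrc5 in both counts, and these entered the test through Restored samples. The pairs share lines and sgRNAs, so they are not 9 independent replicates.

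**Figure D3:**
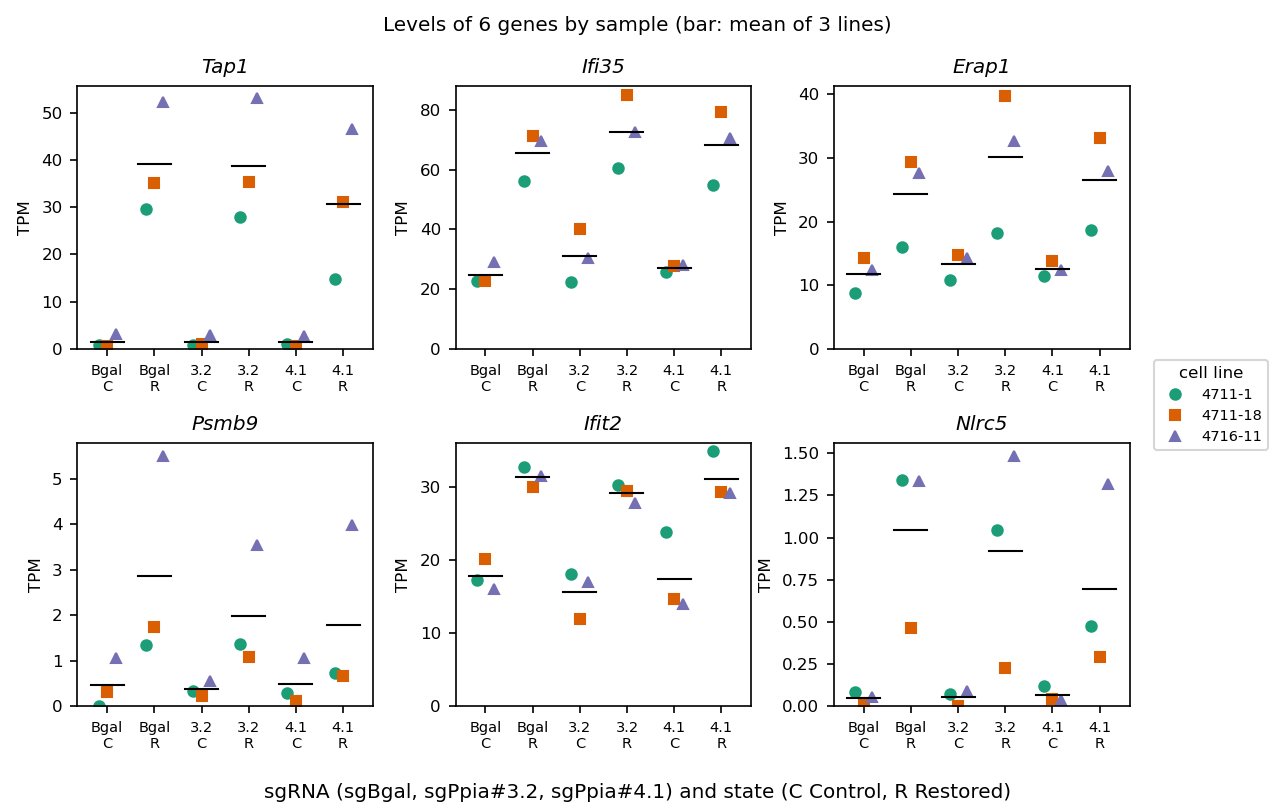
TPM (vertical axes, from 0) of Tap1, Ifi35, Erap1, Psmb9, Ifit2 and Nlrc5 in each sample, by sgRNA and state, with a marker for each cell line and a bar for the mean of the 3 lines. Control and Restored samples are apart in every panel but that of Psmb9, where the Control samples of 4716-11 at up to 1.06 TPM reach the Restored samples of the other lines.

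Genes of the same pathways outside the 39 were examined in 3 lists. Of 27 other sensors and signalling genes tested, 3, 1 and 2 were called higher in the order sgBgal, sgPpia#3.2 and sgPpia#4.1 (11.1%, 3.70% and 7.41%, against the 5.46%, 4.44% and 4.3% of all genes), and 0 lower. Ikbke, a kinase related to Tbk1, was called with each (log2 fold changes of 1.77, 1.54 and 1.41), Trim21, a cytosolic antibody receptor, with sgBgal and sgPpia#4.1 (1.28 and 1.21), and Trim56, a ubiquitin ligase, with sgBgal (1.20). Of 29 other interferon-stimulated genes, 9 entered the test only through Restored samples, and among the other 20 the calls were 1, 1 and 0 higher and 1 lower with each sgRNA. The gene called higher was Igtp, an interferon-induced GTPase, with sgBgal and sgPpia#3.2 (1.42 and 1.38). Xaf1, a pro-apoptotic protein, and Trim34a each reached 1 TPM in 1 Control sample, so their values are a description with no test. Xaf1 was at 0.341 to 1.04 TPM in Control and 1.30 to 5.41 TPM in Restored samples, and Trim34a at 0.294 to 1.22 TPM and 1.44 to 3.25 TPM. Ccl2, a chemokine, fell by 3.24, 2.02 and 2.88 on the log2 scale. Of 22 other antigen presentation genes, 0 were called in either direction, and 1 was higher at the adjusted p alone with each sgRNA. The medians of the lists were 0.33, 0.42 and 0.22 for sensors and 0.03, -0.03 and 0.07 for antigen presentation, beside 0.19, 0.17 and 0.15 over all genes. The 29 interferon-stimulated genes had medians of 0.46, 0.47 and 0.38. These include the 9 genes that entered the test only through Restored samples, so they are a description.

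The second question was whether lower Ppia changed these genes. No difference was called between either Ppia sgRNA and sgBgal, in Control or in Restored cells: limma called 0 of the 31 genes and 0 of 12828 in each of the 4 comparisons (0%). Ppia itself was among the 12828 and so was not called either, although its RNA was lower. The count of 0 therefore cannot show that these genes did not change. At an unadjusted p under 0.05 there were 0 and 1 of the 31 in Control cells with sgPpia#3.2 and sgPpia#4.1 (against 2.42% and 0.21% of all genes) and 1 and 0 in Restored cells (against 1.2% and 0.53%). The estimates for the 31 genes lay between -0.66 (Irf1) and 0.51 (H2-D1) and between -0.38 and 0.26 in Control cells, and between -0.47 and 0.60 and between -0.52 and 0.58 in Restored cells. Without the Control sample of 4711-18 with high Cdkn1a, H2-D1 was at 0.15 and Irf1 at -1.05 with sgPpia#3.2 in Control cells, and neither was called. The 95% intervals lay wholly within a log2 fold change of -1 to 1 in 22, 23, 21 and 22 of the 31. In the other genes the interval reached past 1 on the log2 scale in at least 1 direction. For Ifit3 the interval in Restored cells with sgPpia#3.2 reached 2.55. With the cell line as block, 30, 31, 30 and 29 of the 31 intervals lay within -1 to 1, and that of Ifit3 reached 1.22. The block called 0 of the 31 at the adjusted p alone (against 0.0156%, 0%, 0.0078% and 0% of all genes). At an unadjusted p under 0.05 it gave 3, 1, 2 and 4 of the 31 (against 12.7%, 1.26%, 8.64% and 3.31%).

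The gene with the smallest p was Dhx58 (LGP2, a regulator of RNA sensing) in 3 of the 4 comparisons. In sgBgal, sgPpia#3.2 and sgPpia#4.1 Control samples it was at 1.10, 1.21 and 0.494 TPM in 4711-1, 1.70, 1.32 and 1.06 TPM in 4711-18 and 1.28, 1.01 and 0.888 TPM in 4716-11. In Restored samples the values were 2.05, 1.06 and 0.719 TPM, 1.70, 0.783 and 1.62 TPM, and 1.43, 1.05 and 1.03 TPM. With a Ppia sgRNA it was lower than with sgBgal in each line and state but for 4711-1 with sgPpia#3.2 in Control cells. The log2 fold changes were -0.38 (unadjusted p = 0.0496) for sgPpia#4.1 in Control cells, and -0.47 (unadjusted p = 0.0197) and -0.38 (unadjusted p = 0.0540) for sgPpia#3.2 and sgPpia#4.1 in Restored cells, each at adjusted p = 1.0 by limma. Among the next smallest were Tlr3, at -0.32 in Control cells with sgPpia#3.2 and in Restored cells with either Ppia sgRNA, and Stat2, at -0.34 in Control cells with sgPpia#3.2 and -0.39 in Restored cells with sgPpia#4.1. Tlr3 in sgBgal Restored samples was at 6.97, 8.05 and 5.71 TPM in the 3 lines, at 6.29, 5.52 and 4.26 TPM with sgPpia#3.2 and at 5.58, 5.58 and 4.74 TPM with sgPpia#4.1. Mavs was at -0.29 in Restored cells with sgPpia#3.2, and in Control cells with sgPpia#4.1 Isg15 was at -0.35 and Irf1 at -0.36, with intervals that included 0.

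**Figure D4:**
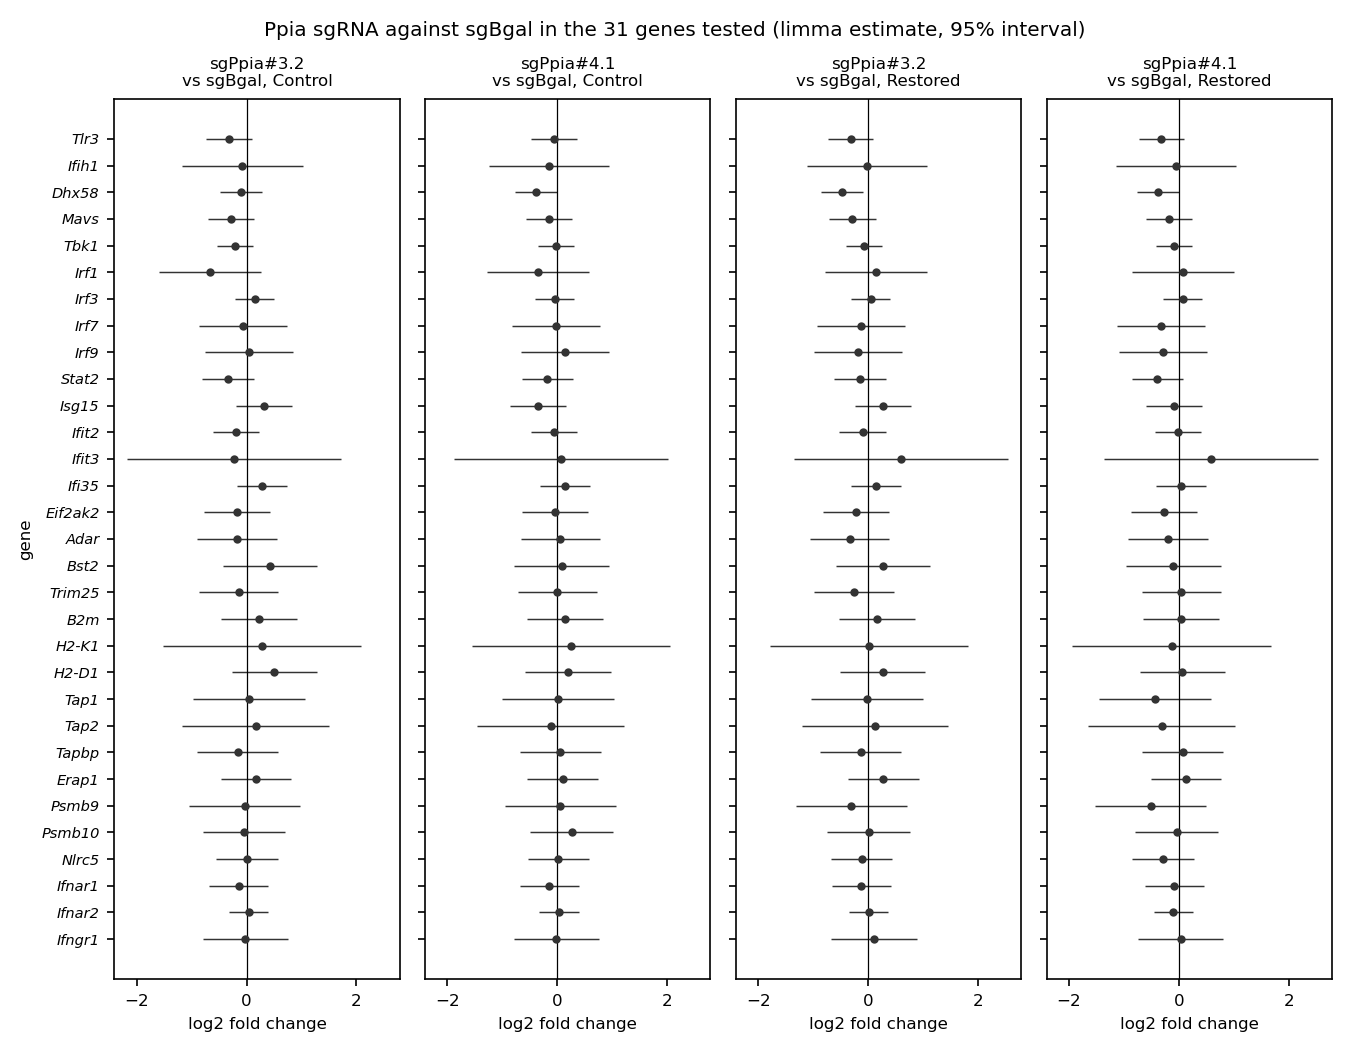
Log2 fold change in TPM + 1 (horizontal axes) of sgPpia#3.2 and sgPpia#4.1 over sgBgal in Control and in Restored cells, for the 31 genes tested (vertical axis), with bars for the 95% interval of limma. All intervals but 2, both of Dhx58, span 0, the estimates lie between -0.66 and 0.60, and the widest intervals belong to Ifit3 and H2-K1.

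Whether the rise after restoration depended on Ppia was tested as an interaction, called at the adjusted p alone. Limma called 0 of the 31 genes with sgPpia#3.2 and with sgPpia#4.1 (0% of all genes), and 0 had an unadjusted p under 0.05 (against 0.242% and 0.14% of all genes). With sgPpia#3.2 the genes with the smallest p were Dhx58 (-0.36, 95% interval -0.90 to 0.18), Irf1 (0.80, -0.51 to 2.11) and Ifit3 (0.83, -1.92 to 3.58). With sgPpia#4.1 they were Tlr3 (-0.26, -0.84 to 0.33), Psmb9 (-0.57, -2.001 to 0.86) and Nlrc5 (-0.31, -1.10 to 0.49). Each of these intervals included 0. Irf1 was at 22.001, 25.02 and 22.1 TPM in sgBgal Control samples of the 3 lines, and at 7.93, 25.1 and 13.97 TPM with sgPpia#3.2. After restoration it was at 10.99, 23.97 and 21.02 TPM and at 10.3, 37.7 and 19.2 TPM in the same order. The median interval reached 1.02 on each side of its estimate, and 0.53 with the cell line as block. With the block, 27 and 25 of the 31 intervals lay within -1 to 1. It called 0 of the 31 (0% of all genes), and 1 and 0 had an unadjusted p under 0.05 (against 1.36% and 0.624%). The 1 was Irf1 with sgPpia#3.2, whose interval became 0.06 to 1.54 (adjusted p = 0.9996).

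The third question was how the 3 lines differed. Ifit3, H2-K1, Tap2, Ifih1 and Tap1 had the widest range of mean log2(TPM + 1) between lines.

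Ifit3, an antiviral protein of the Ifit family, was highest in 4711-1 and lowest in 4711-18. In Control samples with sgBgal, sgPpia#3.2 and sgPpia#4.1 it was at 5.82, 5.20 and 7.49 TPM in 4711-1, 0.480, 0.130 and 0.552 TPM in 4711-18 and 2.16, 1.84 and 1.82 TPM in 4716-11. In Restored samples it was at 6.54, 8.98 and 17.5 TPM, 0.596, 2.80 and 1.02 TPM, and 5.97, 6.77 and 6.56 TPM. The ranges of 4711-1 and 4711-18 did not overlap. The log2 difference was -2.32 ± 0.20 (SE) for 4711-18 against 4711-1 (limma adjusted p = 9.05e-07) and 1.39 ± 0.20 for 4716-11 against 4711-18 (adjusted p = 8.96e-05). Ifit3 reached 1 TPM in 2 samples of 4711-18 and in 6 of each other line. It thus met the filter through the lines in which it was high, so both differences are a description and the p-values no support. Ifit3b is a near copy of Ifit3, and reads may have been split between them. It was at 1.46 to 4.51 TPM in 4711-1 and at most 0.973 TPM in 4711-18.

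H2-K1 was highest in 4711-18. Control samples of 4711-18 were at 55.9, 103 and 60.8 TPM with sgBgal, sgPpia#3.2 and sgPpia#4.1 and Restored samples at 42.0, 46.3 and 41.3 TPM. In 4711-1 it was at 9.37 to 18.1 TPM and in 4716-11 at 10.5 to 21.5 TPM. The differences were 1.97 ± 0.21 against 4711-1 (adjusted p = 6.33e-06) and -1.70 ± 0.21 for 4716-11 against 4711-18 (adjusted p = 2.45e-05). The sample at 103 TPM is the one with high Cdkn1a, which also had the highest Bst2 (195 TPM) and H2-D1 (211 TPM). Without it the differences were 1.78 and -1.51, and both were called.

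Ifih1 was also highest in 4711-18, at 2.96, 1.63 and 2.16 TPM in Control and 5.38, 5.73 and 5.38 TPM in Restored samples. It was at 0.376, 0.718 and 0.345 TPM and then at 1.47, 1.23 and 1.22 TPM in 4711-1, and at 1.13, 1.19 and 0.982 TPM and then at 2.54, 2.53 and 2.52 TPM in 4716-11. The difference of 4711-18 from 4711-1 was 1.31 ± 0.11 (adjusted p = 5.59e-07). Tap2 was highest in 4716-11, where Control samples were at 14.2, 16.2 and 12.3 TPM, against 4.67, 5.43 and 7 TPM in 4711-1 and 3.08, 3.50 and 1.56 TPM in 4711-18. The difference of 4716-11 from 4711-18 was 1.34 ± 0.26 (adjusted p = 0.000711). Tap1 was highest in 4716-11 in both states, at 1.07 ± 0.15 above 4711-1 (adjusted p = 8.36e-05).

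In all, 2 of the 31 were called higher and 1 lower in 4711-18 than in 4711-1 (against 3.8% and 5.14% of all genes), 1 higher and 0 lower in 4716-11 than in 4711-1 (against 2.42% and 4.4%), and 2 higher and 1 lower in 4716-11 than in 4711-18 (against 3.81% and 5.14%). At the adjusted p alone, 14, 18 and 19 of the 31 differed (45.2%, 58.1% and 61.3%, against 49.1%, 46.6% and 55.2%). 4711-18 was above 4711-1 in 12 and below it in 2 (against 30.1% and 19% of all genes), and 4716-11 was above 4711-18 in 6 and below it in 13 (against 17.2% and 38%). 4716-11 was above 4711-1 in 12 and below it in 6 (against 17.9% and 28.8%). The table as a whole was shifted between lines, with medians of all genes of 0.09 for 4711-18 over 4711-1 and -0.15 for 4716-11 over 4711-18. Rescaling brought these to -0.000248 and 0.01. On that scale 12 members were higher and 5 lower in 4711-18 than in 4711-1 (against 23.8% and 24.1% of all genes), and 6 higher and 9 lower in 4716-11 than in 4711-18 (against 26.6% and 25.3%). Before rescaling, B2m, Psmb9, Tap1, Tap2 and Nlrc5 were higher in 4716-11 than in 4711-18, whereas H2-K1, Bst2, Irf1, Irf7, Irf9 and Ifih1 were among the 13 that were lower. Nlrc5 reached 1 TPM in 2 samples of 4711-1, 3 of 4716-11 and 0 of 4711-18, so it was tested only because of the lines in which it was high. Psmb9 reached it in 2, 5 and 2 samples in that order of lines, and Ifit3 in 6, 6 and 2. For both genes 4711-18 alone would not have met the filter, so their differences from 4711-18 in these tests are a description. These tests take the 6 samples of a line, which are 1 tumor-derived line, as its replicates.

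**Figure D5:**
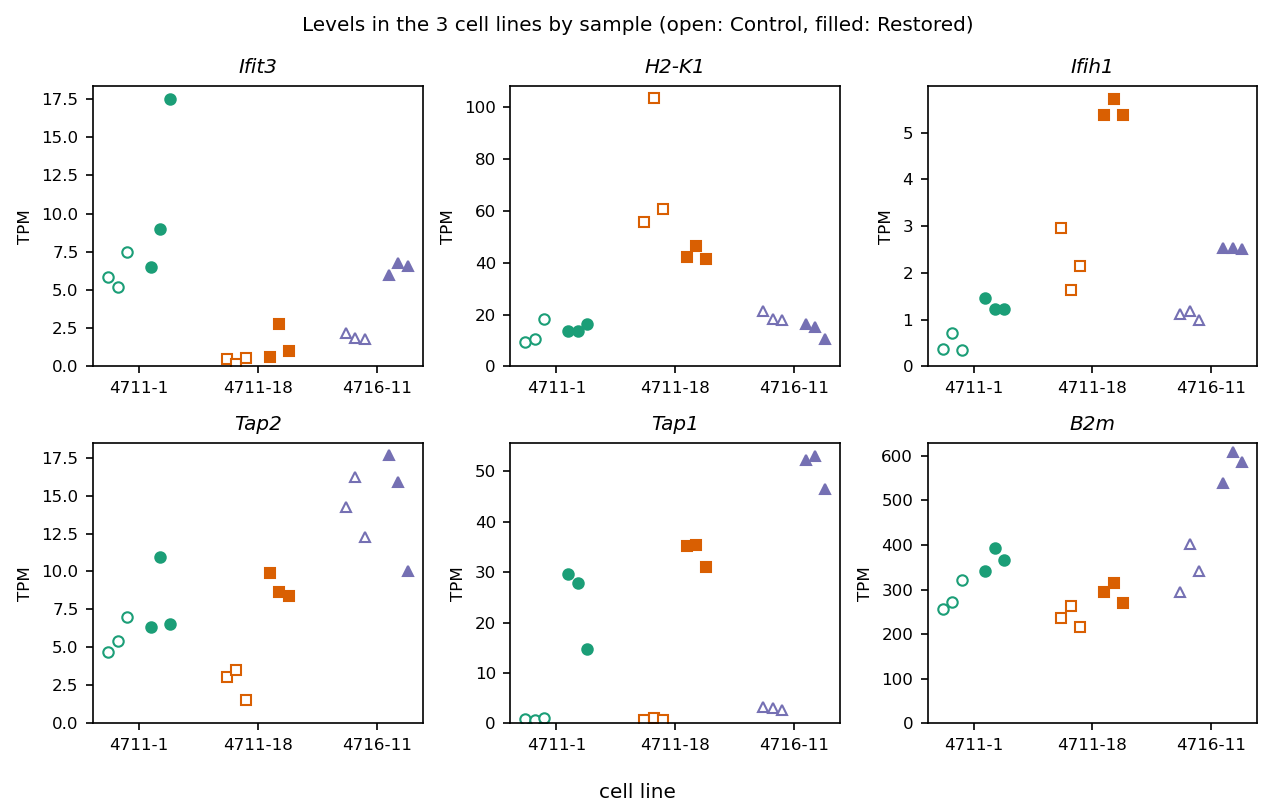
TPM (vertical axes, from 0) of Ifit3, H2-K1, Ifih1, Tap2, Tap1 and B2m in the samples of the 3 cell lines (horizontal axis), with open markers for Control and filled markers for Restored, each set of 3 in the order sgBgal, sgPpia#3.2, sgPpia#4.1. Ifit3 is lowest in 4711-18, H2-K1 is highest there at 41.3 to 103 TPM, and Tap2 of 4716-11 is high before restoration.

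The last question was whether the lines responded unlike each other to restoration, with the 3 sgRNAs of a line taken as its samples. Limma called 0 of 31 genes between 4711-18 and 4711-1 (against 2.1% of all genes, called at the adjusted p alone) and 0 between 4716-11 and 4711-1 (against 1.47%), with 9 and 6 at an unadjusted p under 0.05 (against 14.8% and 11%). Between 4716-11 and 4711-18 it called 2 (6.45%, against 2.52%), Tap2 and Nlrc5, and 9 had an unadjusted p under 0.05 (against 15%). Tap2 was higher after restoration in 4711-18, going from 3.08, 3.50 and 1.56 TPM to 9.89, 8.62 and 8.36 TPM. In 4716-11 it went from 14.2, 16.2 and 12.3 TPM to 17.7, 15.9 and 10.02 TPM, and in 4711-1 from 4.67, 5.43 and 7 TPM to 6.34, 10.9 and 6.52 TPM. The response of 4716-11 minus that of 4711-18 was -1.46 ± 0.34 (SE) on the log2 scale (adjusted p = 0.0324). The Nlrc5 response was 0.79 ± 0.19 larger in 4716-11 than in 4711-18 (adjusted p = 0.0324). Since Nlrc5 entered the test through Restored samples of 4716-11 and 4711-1 alone, this value is a description and supports no difference between the lines.

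Tap1 was higher after restoration in each line, and its response was 0.67 larger in 4711-18 than in 4711-1, which did not pass (adjusted p = 0.242 by limma). Ifngr1 in 4711-1 went from 239, 167 and 202 TPM to 117, 119 and 104 TPM, while in 4711-18 it was at 206, 276 and 214 TPM and then at 197, 259 and 216 TPM. That difference in response, 0.78, had adjusted p = 0.0680. Trim25 went from 29.5, 21.7 and 26.8 TPM to 13.3, 12.8 and 13.98 TPM in 4716-11, and from 25.1, 25.5 and 31.5 TPM to 26.2, 25.05 and 30.8 TPM in 4711-1. The difference, -0.90, had adjusted p = 0.0594.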

How the data were processed

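RNA of 18 samples was measured, and groups were taken from the sample labels (cell line, sgRNA, treatment). RNA was isolated with RNeasy and libraries were made with NEBNext Ultra II. The authors deposited TPM for 25239 genes, with columns of equal sum; no other per-sample file was used. The submitters' processing notes name bcl2fastq 2.17, HISAT2, mm10 and GRCm39, and the paper's methods also name Kallisto, without saying which served these samples. The gene counter, annotation and filter are not given in the sources used here. Absolute depth is unknown, so no counting interval was given.

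log2(TPM + 1) was tested with limma 3.58.1 (lmFit, eBayes; R 4.3.3) on the 12828 genes that reached 1 TPM in 3 or more samples, with Benjamini-Hochberg adjustment over all of them. Restoration, sgRNA and interaction comparisons used 1 mean per condition, line comparisons added the line to the condition, and line responses used 1 mean per line and state. Calls needed an adjusted p under 0.05 together with a log2 fold change of 1 or more in size, or the adjusted p alone for interactions and responses. The cell line in the labels pairs samples across conditions: deviations of same-line samples from their condition means correlated at 0.73 on average over 45 pairs across genes (lowest 0.58). The study states no block, so the unblocked fit is given first. P-values measure the spread between these lines, and between the samples of a line in line comparisons. The 39 genes and the other lists were chosen with earlier results of these data known. Genes were named as up to 8 called with the largest change per comparison, the 3 smallest p where fewer than 3 were called between sgRNAs or in interactions, and the 5 with the widest range between lines, and up to 5 called per other list; further genes are given where their role needs it. Promoters came from RefSeq (GRCm38.p6) and were scanned in Python 3.11.15 with pandas 2.3.3; plots used matplotlib 3.10.9. The fits were tested on simulated data. Alternatives were another pseudocount, rescaling, other filters, trend and robust eBayes, a block, the compared groups alone, Control samples alone for lines, and leaving out each line or sgRNA. 1 alternative, leaving out the Control sample of 4711-18 with sgPpia#3.2, was added after its values were seen.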

Additional observations from a re-analysis of the deposited data

Results flagged for a closer look

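The restoration response of 2 genes differed between lines 4716-11 and 4711-18 by limma's test of the difference itself. For Nlrc5 the difference was 0.794 on the log2 scale (adjusted p = 0.0324), with higher values after restoration in all 3 sgRNA pairs of both lines. Nlrc5 was tested only because 3 Restored samples of 4716-11 and 2 of 4711-1 reached 1 TPM, against 0 of 4711-18, so this difference supports nothing on its own. For Tap2 it was -1.46 (adjusted p = 0.0324), with a rise in the 3 pairs of 4711-18 and lower values after restoration in 2 of the 3 pairs of 4716-11. Both calls were lost with a pseudocount of 0.1, at 1.42 and -1.76, and each was lost when any of the 3 sgRNAs was left out, at 0.74 to 0.88 and -1.63 to -1.12. Without the Control sample of 4711-18 with sgPpia#3.2 both were called, at 0.81 and -1.62.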

How the results depend on the processing

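Counts below are members called of 31, or of 32 with rescaling, 39 with no filter on low values and 30 with a mean of at least 1 TPM, and no change of direction was seen in the results followed under the alternatives. Called after restoration with sgBgal (2): 6 with no minimum fold and 4 with a pseudocount of 0.1. With sgPpia#3.2 (3): 6 with no minimum fold, 5 with the cell line as replicate block, 1 in the compared groups only and 1 to 3 without one line, the lowest without 4716-11. With sgPpia#4.1 (2): 5 with no minimum fold, 4 with a pseudocount of 0.1 and 1 to 3 without one line, the lowest again without 4716-11. Of all genes, 13.8%, 10.01% and 10.3% were called with no minimum fold in the order sgBgal, sgPpia#3.2 and sgPpia#4.1. With a pseudocount of 0.1 the shares with sgBgal and sgPpia#4.1 were 8.72% and 6.92% of all genes, beside 12.9% of the members. With sgPpia#3.2 they were 8.61% with the block, 2.86% in the compared groups only and 1.79% without 4716-11, and with sgPpia#4.1 2.18% without 4716-11. At the adjusted p alone the counts with sgBgal, sgPpia#3.2 and sgPpia#4.1 (6, 6 and 5) became 15, 14 and 15 with the replicate block and 3, 1 and 2 in the compared groups only. Rescaling gave 3, 4 and 2 (against 6.46%, 5.65% and 5.38% of all genes higher and 6.64%, 4.49% and 4.88% lower). Leaving out one line gave 3 to 4, 1 to 4 and 1 to 5. There 2.67% to 5.55%, 1.55% to 5.53% and 1.64% to 5.07% of all genes were higher. The shares lower were 1.10% to 2.03%, 0.24% to 1.81% and 0.58% to 1.72%. Without the Control sample of 4711-18 with sgPpia#3.2 the count with that sgRNA was 3. The block changed no call of a member in the comparisons between sgRNAs or in the interactions. Tap1 was called with every sgRNA under each alternative run (log2 fold change 3.28 to 4.85, highest adjusted p 0.0357 by limma). Ifi35 was lost with sgPpia#3.2 in the compared groups only, and with both Ppia sgRNAs without 4716-11.

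Line calls with no minimum fold, given next, are 45.2%, 58.1% and 61.3% of the 31, beside 49.1%, 46.6% and 55.2% of all genes. With a pseudocount of 0.1, 10.8% of all genes were called for 4716-11 against 4711-1 and 13.8% for 4716-11 against 4711-18, and with rescaling 6.89% and 8.72%. In Control samples only the shares of all genes were 8.89% for 4711-18 against 4711-1 and 6.16% for 4716-11 against 4711-1. Line calls for 4711-18 against 4711-1 (3) became 14 with no minimum fold and 5 in Control samples only. For 4716-11 against 4711-1 (1) they became 18 with no minimum fold, 5 with a pseudocount of 0.1, 3 with rescaling and 3 in Control samples only. Without one sgRNA they became 2 to 4 (against 6.28% to 7.47% of all genes). For 4716-11 against 4711-18 (3) they became 19, 8 and 5 with no minimum fold, a pseudocount of 0.1 and rescaling. Responses of 4711-18 against 4711-1 (0) became 0 to 1 without one sgRNA (1, Ifngr1, without sgPpia#3.2, against 2.78% of all genes). They became 3 without the Control sample of 4711-18 with sgPpia#3.2 (Ifngr1, Psmb10 and Tap2), where the share of all genes called went from 2.10% to 6.57%. Responses of 4716-11 against 4711-1 (0) became 1, Trim25, with rescaling, with the sgRNA as replicate block and in the compared groups only. The shares of all genes called there were 1.58%, 1.70% and 2.02%. Responses of 4716-11 against 4711-18 (2) became 0 with a pseudocount of 0.1 (against 1.40% of all genes). Without one sgRNA they became 0 to 1 (against 0.39% to 3.75%). They were 1 each with no filter on low values, a mean of at least 1 TPM and trend and robust eBayes (against 1.65%, 1.91% and 2.28%). Samples with the same sgRNA did not deviate together (correlation 0.09 on average over 45 pairs, lowest -0.49), so the sgRNA was not taken to pair samples. The cause of these changes was not tested beyond fewer samples in the smaller fits. Unknown depth limits what can be said of genes near 0 TPM.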
